A study of Mus musculus with 27 samples.

Results

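The genes of the cytosolic ribosomal proteins were followed across D1 and D2 medium spiny neurons of the mouse striatum, with and without the histone methyltransferase G9a and with and without repeated cocaine. Members were the symbols of the array annotation made of Rpl or Rps and a number, with an optional final a, l, x or y, and Rplp0, Rplp1, Rplp2 and Rpsa, without Rps6k genes and without names of pseudogenes. Of 18193 genes with a probe set that carries 1 symbol only, 46 were members, and each was read from the brightest such probe set, by its mean over the 27 arrays. A further 28 member symbols, among them Rpl3, Rpl5, Rpl10, Rplp1 and Rps12, appeared only on probe sets shared with other symbols and were not read as genes.

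All mice carried both floxed copies of G9a (Ehmt2) and a GFP-tagged ribosomal protein L10a, driven by the promoter of the D1 receptor (Drd1-TRAP) or of the D2 receptor (Drd2-TRAP). Mutants also carried Drd1-Cre or Drd2-Cre, which controls lacked, so the loss of G9a and the presence of Cre cannot be told apart. D1 and D2 neurons came from mice with different tagging transgenes, so neuron type and TRAP line cannot be told apart in any D1 against D2 difference. The males were 2 to 5 months old, on a mixed background of C57BL/6 and 129/Sv, and received 8 repeated injections of cocaine (20 mg/kg/day) or saline, with the tissue taken 2 h later. D1 mutants gave 4 cocaine and 3 saline arrays, D1 controls 4 cocaine and 2 saline, D2 mutants 4 cocaine and 3 saline, and D2 controls 4 cocaine and 3 saline. Each array held RNA bound to tagged ribosomes, and more messenger RNA and more of it on ribosomes cannot be told apart in these values. In such bulk samples, fewer cells of a type and less RNA per cell cannot be told apart either.

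Each cytosolic ribosome has a small subunit, built with the Rps proteins, that reads the messenger RNA, and a large subunit, built with the Rpl proteins, that joins the amino acids. Messenger RNAs of ribosomal proteins are abundant in every cell and are known in mammals for a run of C and T at their very 5′ end (the TOP motif), through which mTORC1 signalling and Larp1 control their translation as a group. Striatal D1 and D2 neurons are the inhibitory projection neurons of the direct and the indirect pathway.

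Ehmt2 ranged from 8.03 to 9.37 (median 8.72) on the log2 scale in D1 mutants and from 9.95 to 10.74 (median 10.46) in D1 controls, and from 8.68 to 9.38 (median 8.96) in D2 mutants and from 10.67 to 11.02 (median 10.76) in D2 controls. All 9 tested D1 neuron markers were higher, and all 8 tested D2 neuron markers lower, in D1 than in D2 neurons of controls. Oligodendrocyte markers (5 of 9) and cholinergic interneuron markers (2 of 2) were also lower in D1 controls than in D2 controls, and 2 of 7 astrocyte markers were higher. Choroid plexus Ttr exceeded 9.5 in 3 arrays, D1 mutant saline replicate 3, D1 control cocaine replicate 3 and D2 control cocaine replicate 3. For D2 mutant cocaine replicate 4, 1 label (the source name) says control and the others say mutant. Its Ehmt2 level was 8.96, inside the range of the D2 mutants, and the count it changes is also given with it moved. RNA quality (the 3′ minus 5′ difference of Gapdh and Actb) differed by 0.09 between D1 and D2 controls (exact permutation test, 2-sided, p = 0.624, adjusted over 5 comparisons 0.902), and none of the 5 comparisons passed.

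Of the 46 members, 42 passed the filter on low values (a log2 level over 6 on 3 or more arrays) and were tested, 21 of each subunit. Rpl12, Rps16, and the like genes Rpl3l and Rpl39l did not reach that level, with means of 4.72, 3.61, 4.39 and 4.35. Each had 1 such probe set, and whether it reads the messenger RNA was not tested. The low values therefore do not show that these messenger RNAs were absent. Levels of different probe sets are not compared here, since probe sets differ in brightness. Mean levels of the tested members ran from 6.09 for Rps27 to 13.53 for Rps29, and 30 members lay above 11, while the highest value on an array was between 14.23 and 14.46. One member, Rps4l, is a transcribed pseudogene in RefSeq although its symbol is not a pseudogene name. The other 41 are protein coding there.

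The bases around the annotated starts of these genes show what their annotated 5′ ends look like. They are given from RefSeq (GRCm38.p6) for the 6 members with the largest difference between D1 and D2 controls that have an entry, for Rpl10a, whose protein carries the tag, and for Rps4x, the parent-like gene of Rps4l. For Rpl22 and Rpl10a, which have 2 annotated starts each, only the first listed is shown. Each line runs 5′ to 3′ on the strand of the gene, from 45 bases before the annotated start through 15 bases of the transcript. The longest unbroken run of C and T is in capitals.
Rpl22: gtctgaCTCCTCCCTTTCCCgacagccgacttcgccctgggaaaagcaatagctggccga
Rps10: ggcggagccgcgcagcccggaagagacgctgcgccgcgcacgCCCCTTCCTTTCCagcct
Rpl37a: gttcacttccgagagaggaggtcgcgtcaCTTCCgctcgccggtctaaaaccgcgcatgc
Rplp0: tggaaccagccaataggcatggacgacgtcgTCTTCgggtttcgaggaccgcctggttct
Rps28: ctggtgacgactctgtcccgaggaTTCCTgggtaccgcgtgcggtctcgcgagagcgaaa
Rps15: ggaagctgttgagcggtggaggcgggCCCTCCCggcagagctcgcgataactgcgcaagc
Rpl10a: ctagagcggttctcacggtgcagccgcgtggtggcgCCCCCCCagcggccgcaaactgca
Rps4x: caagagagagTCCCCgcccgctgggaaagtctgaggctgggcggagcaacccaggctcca

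These stretches lie at chr4:152325681-152325740 (plus strand, Rpl22), chr17:27635230-27635289 (minus, Rps10), chr1:72711215-72711274 (plus, Rpl37a), chr5:115559422-115559481 (plus, Rplp0), chr17:33824548-33824607 (minus, Rps28), chr10:80292386-80292445 (plus, Rps15), chr17:28328426-28328485 (plus, Rpl10a) and chrX:102189377-102189436 (minus, Rps4x). The capitals in Rps10 span the annotated start, with a run of 13 C or T that begins 3 bases before it, and in Rpl22 a run of 14 lies before the start. In Rpl37a, Rplp0, Rps28 and Rps4x the longest run had 5 bases, so a long run was not common to all the stretches shown. Over the whole family, 40 of the 46 members had an entry. Of the 40, 23 (57.5%) had at least 8 C or T in a row on the strand of the gene within 30 bases of a start. The share was 25.8% of the 27025 genes in the table. The letters CCGGAAG, the core bound by ETS factors, occurred on either strand in the 300-base window of 20 of the 40 (50.0%), against 9.93% of all genes. These are matches of letters at annotated starts, which need not be the starts used in striatal neurons.

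Nearly all members were lower in D1 than in D2 neurons of control mice. With both drugs weighted equally, 36 of 42 were lower and 2 were higher (limma, adjusted p under 0.05 over 12017 genes), where 17.1% of all tested genes were lower and 11.9% higher. Both subunits took part alike in number, with 18 of 21 small subunit and 18 of 21 large subunit members lower. The median difference was -0.43 on the log2 scale, where the median over all tested genes was -0.03. Without Rps4l, the counts were 36 lower and 1 higher of 41.

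**Figure D1:**
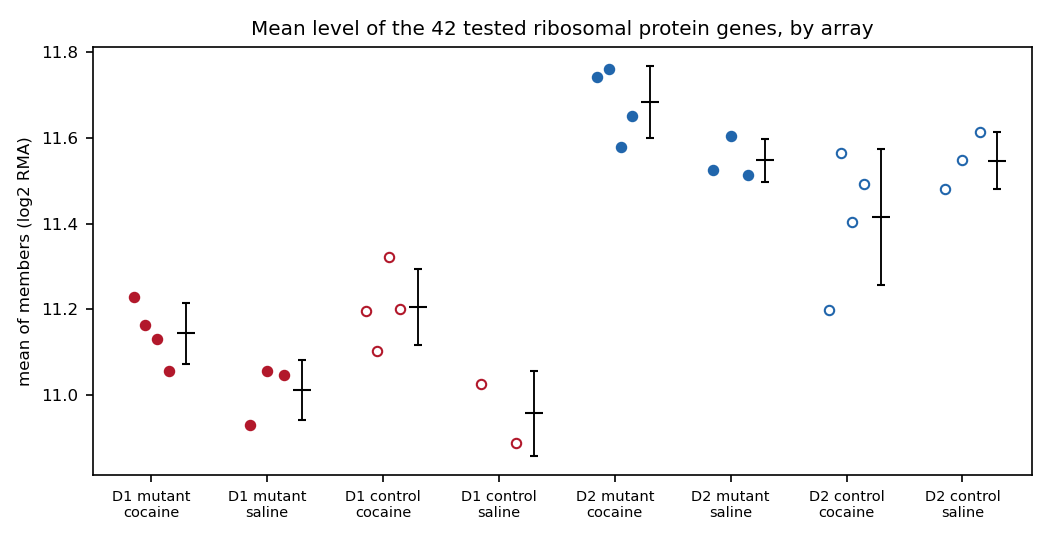
Mean level of the 42 tested members (log2 RMA, y axis) on each array, by group (x axis); filled circles are mutants, open circles controls, red D1 and blue D2, and the black bars give the group mean with its SD. All D1 mutant arrays lie below all D2 mutant arrays, while D2 control cocaine replicate 1 (11.198) lies among the D1 control arrays.

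As a mean over the 42 members, D1 mutants ranged from 10.931 to 11.228 (median 11.057), D1 controls from 10.888 to 11.322 (median 11.150), D2 mutants from 11.514 to 11.760 (median 11.605) and D2 controls from 11.198 to 11.614 (median 11.493). Arrays of mutants therefore did not overlap between the subtypes, and those of controls did. The overlap among controls came from D2 control cocaine replicate 1 at 11.198, since the other 6 D2 controls were at 11.404 or above and the highest D1 control was at 11.322. The plot of the mean by array shows this for all 8 groups.

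Rps28 codes for a small protein of the small subunit. It ranged from 12.24 to 12.78 (median 12.66) in D1 controls and from 12.76 to 13.39 (median 13.25) in D2 controls. Only the lowest D2 array, cocaine replicate 1 at 12.762, lay inside the D1 range. The difference was -0.66 ± 0.09 (SE), or 1.58-fold lower in D1, with an adjusted p of 7.04e-06. Rpl22, an RNA-binding large subunit protein, ranged from 11.07 to 11.91 (median 11.53) in D1 controls and from 11.57 to 12.50 (median 12.32) in D2 controls, a difference of -0.74 ± 0.13 (adjusted p = 0.000125). Rps10, a small subunit protein near the entry of the messenger RNA, ranged from 9.85 to 10.57 (median 10.23) in D1 controls and from 10.43 to 11.12 (median 10.89) in D2 controls. Its difference was -0.73 ± 0.12 (adjusted p = 6.31e-05), and again 1 D2 array reached into the D1 range.

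Members of the ribosomal stalk, which recruits the elongation factors, were lower too. Rplp0, the base of the stalk, ranged from 10.23 to 11.24 (median 10.76) in D1 controls and from 11.22 to 11.62 (median 11.54) in D2 controls, a difference of -0.66 ± 0.12. Rplp2, one of its acidic proteins, ranged from 12.47 to 12.82 (median 12.57) in D1 controls and from 12.69 to 13.24 (median 13.14) in D2 controls, a difference of -0.50 ± 0.08. In both genes the groups overlapped at the low end of D2. Rpsa, also known as the laminin receptor precursor, ranged from 11.46 to 11.81 (median 11.57) in D1 controls and from 11.67 to 12.19 (median 12.01) in D2 controls, a difference of -0.43 ± 0.07. Rpl11, which with Rpl5 binds Mdm2 when ribosome assembly is disturbed, differed by -0.40 ± 0.07, and Rps27l, the p53-inducible relative of Rps27, by -0.44 ± 0.10. Rps27 itself was called lower, with 5.48 to 6.33 (median 5.83) in D1 controls and 6.06 to 6.50 (median 6.37) in D2 controls. Its D1 median lay under the level of 6 used as the filter, so no size is given for its difference. For Rps27l the ranges were 7.89 to 8.78 (median 8.14) in D1 controls and 8.35 to 8.77 (median 8.54) in D2 controls, so the highest of these control arrays was a D1 array. Rpl37a (-0.70 ± 0.15), Rps15 (-0.62 ± 0.09), Rps14 (-0.60 ± 0.09) and Rps24 (-0.58 ± 0.11) were the others with the largest falls. Rps2 (-0.22 ± 0.06) and Rps3 (-0.25 ± 0.06), both near the path of the incoming messenger RNA, were the called members with the smallest falls. Between these ends, from -0.56 to -0.26, lay Rps20, Rpl19, Rpl27, Rpl27a, Rps29, Rpl4, Rpl35, Rps26, Rpl38, Rpl41, Rps18, Rpl13a, Rps4x, Rps7, Rpl7a, Rpl6, Rpl37, Rpl8, Rpl7, Rps25 and Rps19, with Rps25 nearest the threshold (adjusted p = 0.0458).

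Glial levels differed between the same arrays. The oligodendrocyte list had a mean of 7.33 to 7.80 in D1 controls and 7.19 to 8.11 in D2 controls, and the astrocyte list 7.54 to 8.13 in D1 controls and 6.97 to 7.63 in D2 controls, while 0 of 2 microglial and 0 of 3 endothelial markers were called. The mean of both glial lists pooled was then put in the fit as 1 covariate. With it, 35 members were lower and 2 higher in D1 controls, and 33 were lower in D1 mutants. Of all genes 3471 were then called in controls, against 3480 without it, and 3352 in mutants, against 5091. In controls the astrocyte list was higher in D1 (mean 7.79 against 7.41) and the oligodendrocyte list lower (7.57 against 7.89). The lists thus differed in opposite directions, so their pooled mean does not adjust for either.

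**Figure D2:**
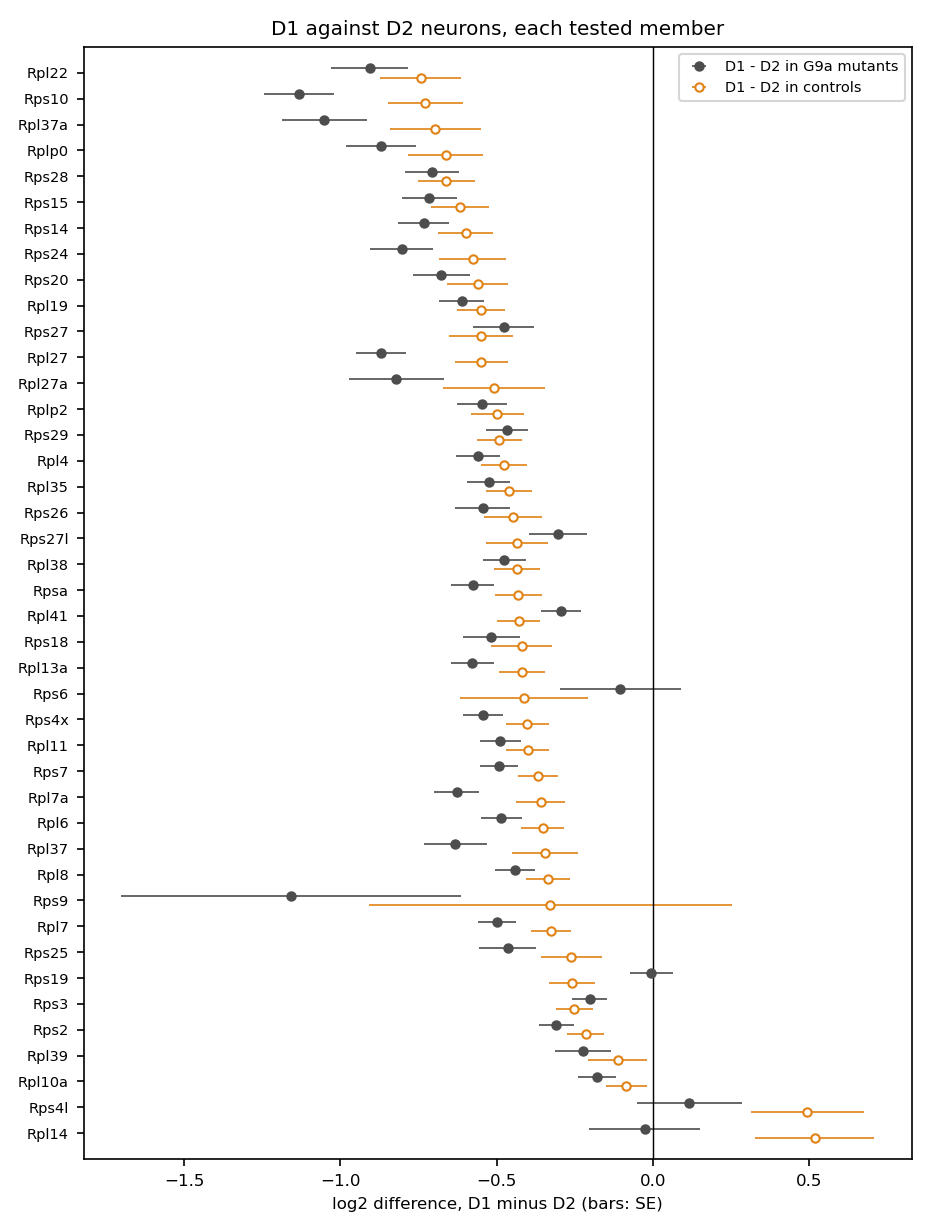
Log2 difference, D1 minus D2 neurons (x axis), for each of the 42 tested members (y axis), in G9a mutants (filled, dark) and in controls (open, orange), with bars for the SE. Most members lie left of 0 in both, Rps4l and Rpl14 lie right of it in controls, and Rps9 has by far the widest bars.

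The remaining 6 members were not lower by the test. Rpl10a, the gene of the tagged protein, ranged from 12.16 to 12.44 (median 12.37) in D1 controls and from 12.02 to 12.55 (median 12.42) in D2 controls. The groups overlapped, and the difference was -0.09 (95% interval -0.22 to 0.05, adjusted p = 0.347). Whether the transgene adds to this probe set was not tested. Rpl39, a very small protein of the large subunit, differed by -0.11 (adjusted p = 0.401), with 7.16 to 7.89 in D1 controls around 7.54 to 7.74 in D2 controls. Rps6, the protein phosphorylated by S6 kinase, differed by -0.41 (adjusted p = 0.138), with 7.67 to 9.12 (median 8.48) in D1 controls and 8.56 to 9.20 (median 8.99) in D2 controls. Rps9 differed by -0.33 ± 0.58, with the largest SE of all members. Its probe set read 6.478 on D1 mutant cocaine replicate 2 and at least 11.646 on every other array. Its second probe set differed by -0.51 (adjusted p = 0.000129 over all probe sets).

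Rpl14, a large subunit protein, and Rps4l were higher in D1 controls. Rpl14 ranged from 7.08 to 8.38 (median 7.66) in D1 controls and from 6.92 to 7.51 (median 7.21) in D2 controls, a difference of 0.52 ± 0.19 (adjusted p = 0.0435). Rps4l ranged from 7.84 to 8.90 (median 8.47) in D1 controls and from 7.47 to 8.23 (median 7.95) in D2 controls, a difference of 0.49 ± 0.18 (adjusted p = 0.0414). In both genes the groups overlapped. Leaving out any 1 of 9 arrays ended the call of Rpl14 and any 1 of 7 that of Rps4l, with adjusted p up to 0.132 for Rpl14 and up to 0.219 for Rps4l.

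Only 3 of 42 members (7.14%) had every D1 control array below every D2 control array, namely Rpl4, Rpl7a and Rpl19, against 4.24% of all tested genes. The count over probe sets was similar. Of 83 tested probe sets with 1 member symbol, 70 were lower in D1 controls and 1 was higher, and of 97 tested probe sets shared with other symbols, 77 were lower and 2 higher, against 15.2% lower of all 22530 probe sets tested. Among 20 members with several tested probe sets, only Rps3, Rps4x, Rps18 and Rps24 had any probe set with a difference above 0. Below 0 were 1 of 3 tested probe sets of Rps3, 1 of 2 of Rps4x, 3 of 4 of Rps18 and 4 of 5 of Rps24. After cyclic loess normalization 32 members were lower and 2 higher with a median of -0.33, while of all genes called, 1862 of 3539 were then higher, against 1428 of 3480 before.

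The members were also lower in D1 than in D2 neurons of G9a mutants, with less overlap. In mutants 37 of 42 members were lower in D1 neurons and 0 higher (limma, adjusted p under 0.05), where 25.8% of all tested genes were lower and 16.6% higher. The median difference was -0.54, where that of all genes was -0.04. Every D1 mutant array lay below every D2 mutant array in 31 of 42 members (73.8%), against 11.5% of all tested genes. No array is shared between the comparison in mutants and that in controls, and 35 members were lower in both. Across the 42 members the 2 sets of differences correlated with a Pearson r of 0.738 and a Spearman rho of 0.732. That is a description over genes of the same ribosome that are not independent. After cyclic loess normalization 33 members were lower in D1 mutants and 0 higher, with a median of -0.396. Of all genes called in mutants, 2686 of 5147 were then higher, against 1990 of 5091 before.

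Rps10 ranged from 9.67 to 10.35 (median 10.02) in D1 mutants and from 10.93 to 11.60 (median 11.08) in D2 mutants. The groups were apart, with a difference of -1.13 ± 0.11 (2.19-fold lower, adjusted p = 2.03e-08). Rpl27, a large subunit protein, ranged from 10.48 to 10.87 (median 10.77) in D1 mutants and from 11.41 to 11.93 (median 11.60) in D2 mutants, a difference of -0.87 ± 0.08 (adjusted p = 5.03e-09). Rps28 (-0.71), Rpsa (-0.58), Rplp2 (-0.55) and Rps27l (-0.30) were lower in D1 mutants too. Rpl37a (-1.05), Rpl22 (-0.91), Rplp0 (-0.87) and Rpl27a (-0.82) were the others with the largest falls. Rpl10a was lower by only -0.18 in D1 mutants (adjusted p = 0.02), from 12.28 to 12.50 (median 12.36) in D1 mutants against 12.45 to 12.63 (median 12.57) in D2 mutants. Its call ended without D2 mutant saline replicate 2 (adjusted p = 0.0523). After cyclic loess the Rpl10a difference in mutants was -0.026 (adjusted p = 0.75), and with the pooled glial covariate -0.086 (adjusted p = 0.404). Rpl39 was lower by -0.22 (adjusted p = 0.0446), a call that any 1 of 13 arrays left out would end. Rpl14 (-0.03), Rps4l (0.12), Rps6 (-0.10), Rps9 (-1.16) and Rps19 (-0.01) did not pass in mutants. Their adjusted p ran from 0.0903 for Rps9 to 0.954 for Rps19. The Rps9 value includes D1 mutant cocaine replicate 2 at 6.478, and among saline mutants the Rps9 difference was -0.545. Oligodendrocyte markers (6 of 9, median -0.59), cholinergic markers (2 of 2) and markers shared by both neuron types (6 of 11 with 1 higher, and in controls 4 of 11 with 1 higher) were also lower in D1 mutants than in D2 mutants. By subunit, 17 of 21 small and 20 of 21 large subunit members were lower.

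By drug, the difference in controls had a smaller median among cocaine than among saline arrays. Among cocaine controls 11 of 42 members were lower in D1 neurons, where 8.45% of all genes were, with a median difference of -0.20. Without D2 control cocaine replicate 1 the count was 22, where 10% of all genes were lower, and the median -0.26. Among saline controls, with 2 D1 arrays, 34 of 42 were lower, where 11.4% of all genes were, with a median of -0.66. In mutants 34 members were lower among cocaine arrays (17.5% of all genes, median -0.53) and 34 among saline arrays (15.4% of all genes, median -0.55). The difference between the drugs, tested gene by gene in controls, passed for 0 members (limma), where 0.133% of all genes passed as higher. At an unadjusted p under 0.05 it stood for 29 of 42 members, where 13.3% of all genes did. Without D2 control cocaine replicate 1 it stood for 25, where 10.8% of all genes did. In mutants 0 members passed, where 0% of all genes passed as higher, and 0 had an unadjusted p under 0.05, where 4.7% of all genes did. Its smallest adjusted p was 0.06, for Rps19, whose D1 minus D2 difference was 0.06 among cocaine controls and -0.58 among saline controls. These comparisons by drug were chosen after the values were seen.

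Among genes that work with the ribosome, the TOP list and the mitochondrial ribosome had mostly lower calls in D1 controls, to be read against 17.1% lower and 11.9% higher of all genes. Of 20 other genes with TOP messenger RNAs or in translation elongation, 11 were lower and 1 higher in D1 controls, led by the growth arrest transcript Gas5 (-0.70), Ybx1 (-0.63) and Naca (-0.56). Ribosomal proteins outside the naming rule were lower for 3 of 6, among them Fau (-0.35), the source of the small subunit protein eS30, and Rpl22l1 (-0.22), the paralogue of Rpl22. Mitochondrial ribosomal proteins, which belong to a separate ribosome in the organelle, were lower for 38 of 76 and higher for 0, with a median of -0.24, and in mutants for 62 of 76 with 1 higher. Initiation factors outside the TOP list had 3 lower (11.5%) and 1 higher of 26, and ribosome assembly genes 8 lower (12.3%) and 2 higher of 65, shares below that of all genes, for example Emg1 (-0.56) and Nhp2 (-0.42). In the mTORC1 list, 6 were higher and 5 lower of 22. Larp1, which binds TOP messenger RNAs, was higher by 0.64 in D1 controls, the S6 kinase family gene Rps6ka3 by 0.77, and the mTORC1 inhibitor Tsc2 was lower by -0.50. In mutants, 14 of 20 genes of the TOP list, 11 of 26 initiation factors, 23 of 65 assembly genes and 8 of 22 mTORC1 genes were lower in D1 neurons, against 1, 2, 3 and 6 higher, where 25.8% of all genes were lower and 16.6% higher.

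In D1 neurons, 1 member, Rps4l, differed between G9a mutants and controls. It was the only call among 42, where 1.12% of all genes were lower and 3.1% higher, and the median of all members was 0.05. Rps4l values were 6.899, 7.814, 7.623 and 7.332 in D1 mutants given cocaine and 6.777, 6.980 and 7.110 in D1 mutants given saline. They were 8.610, 8.336, 8.895 and 7.839 in D1 controls given cocaine and 8.640 and 8.138 in D1 controls given saline. Every D1 mutant array thus lay below every D1 control array, and Rps4l fell by 1.22 ± 0.18, or 2.33-fold (adjusted p = 4.88e-05). It was the 1 member of 42 (2.38%) without overlap in that direction, against 0.641% of all genes. By drug it fell by 1.003 (log2) among cocaine arrays (adjusted p = 0.00753) and fell by 1.434 among saline arrays (adjusted p = 0.00395), in each the 1 member called, where 0.949% and 0.449% of all genes were lower.

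Rps4l was also lower in D2 mutants. Its values were 6.714, 7.354, 7.039 and 7.277 in D2 mutants given cocaine and 7.466, 6.664 and 7.009 in D2 mutants given saline. They were 7.949, 7.821, 8.226 and 8.195 in D2 controls given cocaine and 7.638, 7.469 and 8.217 in D2 controls given saline. All mutant arrays were again below all controls, by a narrow margin (7.466 against 7.469), and the change was -0.84 ± 0.17 (1.79-fold lower, adjusted p = 0.00114). Among all genes 1.17% had every D2 mutant array below every D2 control array. With the level of astrocyte and oligodendrocyte markers as a covariate it was -0.77 (adjusted p = 0.0715). The oligodendrocyte level did not overlap between D2 mutants and D2 controls, so that fit cannot tell glial level and genotype apart. The effects in D2 and D1 neurons differed by 0.38 (95% interval -0.13 to 0.89, adjusted p = 0.582).

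**Figure D3:**
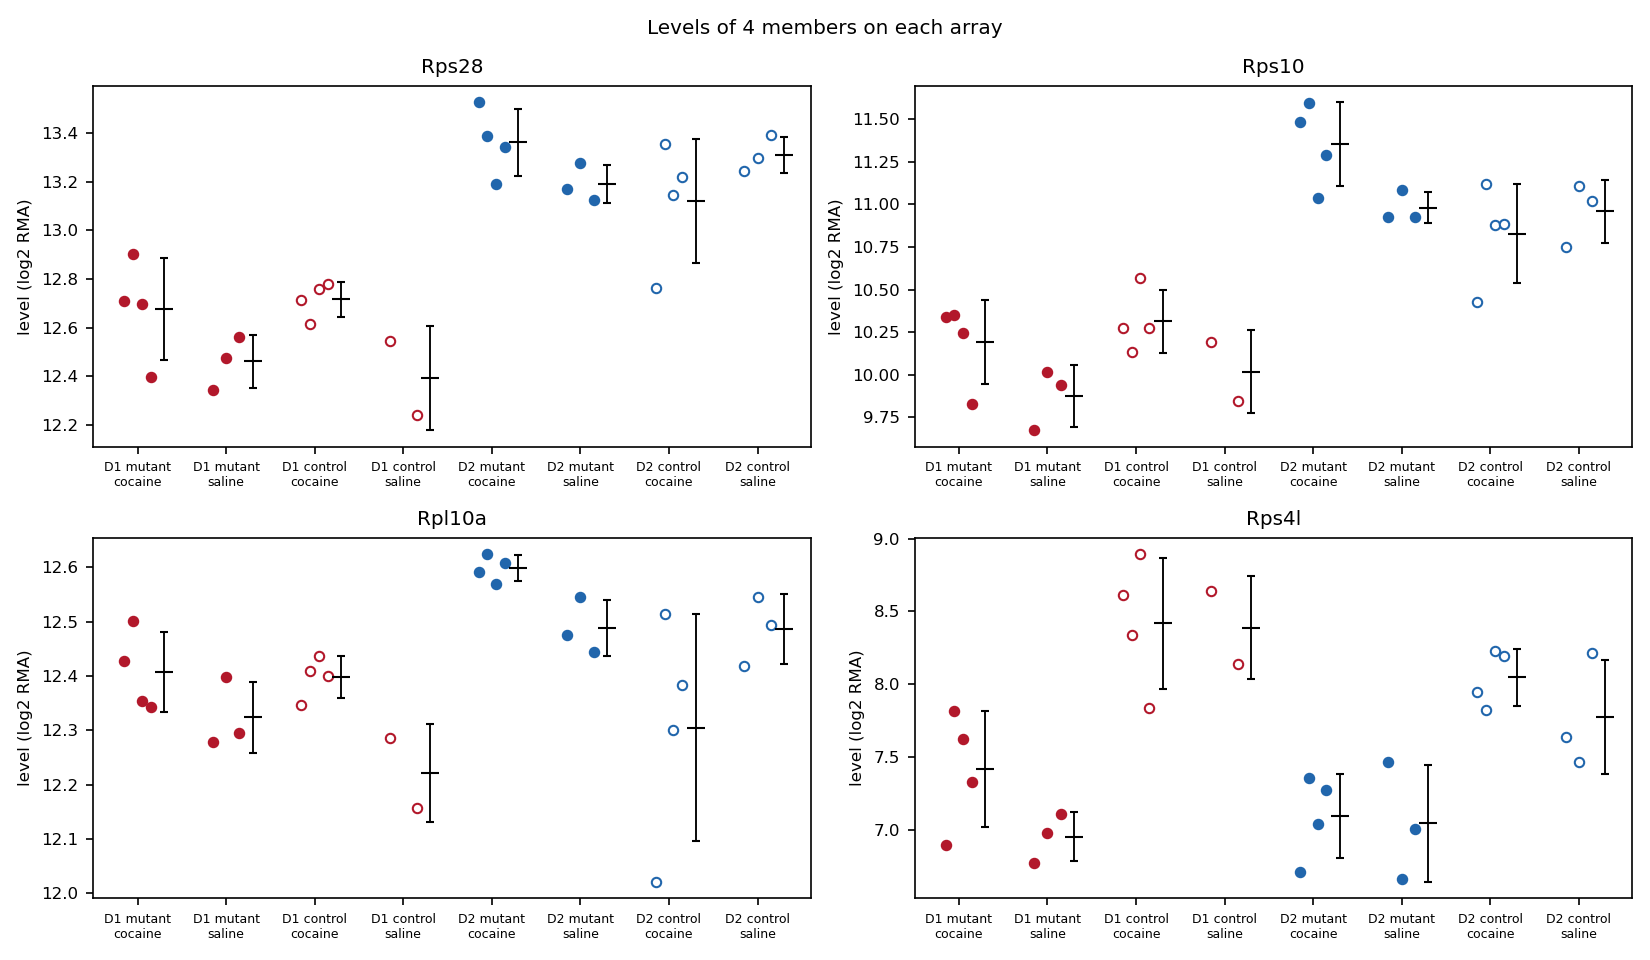
Levels (log2 RMA, y axes) of Rps28, Rps10, Rpl10a and Rps4l on each array by group (x axes), with filled circles for mutants, open circles for controls, red for D1, blue for D2, and black bars for the group mean and SD. Rps28 and Rps10 separate the subtypes except for the lowest D2 control array, and Rpl10a does so far less. Rps4l separates mutants from controls within each neuron type but not across both.

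Its parent-like gene Rps4x, which codes for the small subunit protein eS4 on the X chromosome, did not follow. Rps4x ranged from 12.41 to 12.73 (median 12.55) in D1 mutants and from 12.35 to 12.82 (median 12.53) in D1 controls, a difference of 0.05. In D2 neurons it ranged from 13.00 to 13.25 (median 13.07) in mutants and from 12.59 to 13.04 (median 12.97) in controls, a difference of 0.19 (adjusted p = 0.0556). Of the 10 genes that flank Rps4l on chromosome 6 and were tested, 5 on each side, only Ccdc91 was called in either neuron type. Ccdc91 rose in both, by 0.60 in D1 mutants (adjusted p = 0.000104) and by 0.48 in D2 mutants (adjusted p = 0.000399). The next tested neighbours of Rps4l, Tmtc1 (0.05 in D1 and -0.03 in D2 mutants) and Ipo8 (0.18 and -0.14), did not pass.

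In D2 neurons, several further members rose in mutants. Of 42 members 7 were higher and 1, Rps4l, lower (limma, adjusted p under 0.05), where 8.41% of all genes were higher and 3.82% lower, with a median of 0.17 over the members and 0.02 over all genes. Rpl7a, a large subunit protein, had values of 12.887, 12.868, 13.080 and 13.030 in D2 mutants given cocaine and 12.921, 12.923 and 12.769 in D2 mutants given saline. It read 12.493, 12.629, 12.604 and 12.672 in D2 controls given cocaine and 12.588, 12.421 and 12.391 in D2 controls given saline. The groups did not overlap, and Rpl7a rose by 0.39 ± 0.07 (1.31-fold, adjusted p = 0.000595). The other 6 were Rps24 (0.33), Rps20 (0.32), Rpl27 (0.31), Rpl7 (0.25), Rps7 (0.25) and Rpl13a (0.23). The call of Rps24 ended without any 1 of 8 arrays (adjusted p up to 0.0921) and was 0.045 on its brightest probe set not ending in _x_at or _s_at (adjusted p = 0.806). That of Rps20 ended without either of 2 arrays (adjusted p up to 0.0725). After cyclic loess Rps24, Rps20 and Rpl7 had adjusted p of 0.0769, 0.0848 and 0.0583, and after median centring Rps24 had 0.0626. With Rpl7a, the members Rpl7, Rps7 and Rps20 had every mutant array above every control array, 4 of 42 (9.52%) against 3.58% of all genes.

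Glial markers were higher on the same arrays. Oligodendrocyte markers rose for 5 of 9 in D2 mutants, their mean ranging from 8.25 to 8.68 in D2 mutants and from 7.19 to 8.11 in D2 controls, and the astrocyte mean ranged from 7.53 to 7.94 in D2 mutants and from 6.97 to 7.63 in D2 controls. With the pooled mean of both lists as 1 covariate, 1 member rose and 0 fell. Of all genes 511 were then called, 327 of them higher, against 1470 and 1011 without it. The oligodendrocyte means of D2 mutants and D2 controls did not overlap, so that fit cannot tell glial level and genotype apart. The part of the glial markers in the rises was not tested. Choroid plexus and ependymal markers rose for 2 of 4, cholinergic markers for 1 of 2 and D1 neuron markers for 4 of 9 in D2 mutants. In D1 mutants 1 of 9 oligodendrocyte markers rose. By drug, 16 members were higher in mutants among cocaine D2 arrays, where 6.43% of all genes were, and 1 was higher among saline D2 arrays, where 2.48% were. Without D2 control cocaine replicate 1, the 16 became 4, where 3.47% of all genes were higher. Counting D2 mutant cocaine replicate 4 as a control left 2 members higher and 1 lower. Of all genes 855 were then called, 583 of them higher.

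Whether G9a loss acted differently on the members of the 2 neuron types was tested directly. No member was called in the difference of the effects, D2 minus D1 (0 of 42 in limma, 5 at an unadjusted p under 0.05), where 0.99% of all genes were called and 12.3% had such an unadjusted p. The median difference was 0.11, and the smallest adjusted p was 0.225, for Rpl27 (0.32, 95% interval 0.08 to 0.56). Among neighbouring lists, 10 of 76 mitochondrial ribosomal genes rose in D2 mutants and 0 fell, for example Mrpl3 (0.38), and 3 of 20 genes of the TOP list rose, for example Eif3k (0.28). These are 13.2% and 15% of the lists, where 8.41% of all genes rose. In D1 mutants 0 of 76 and 0 of 20 were called.

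**Figure D4:**
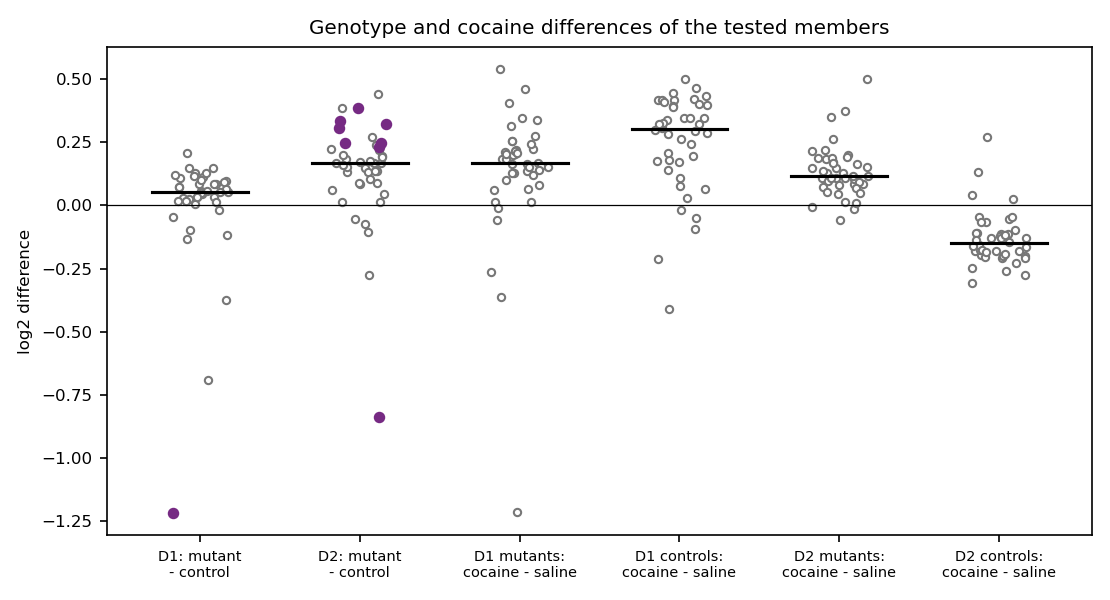
Log2 difference (y axis) of each of the 42 tested members for 6 contrasts (x axis): mutant minus control in D1 and in D2, and cocaine minus saline in 4 groups. Purple points passed an adjusted p of 0.05, open points did not, and black lines are medians. The low purple point in both genotype contrasts is Rps4l, the lowest open point under D1 mutants given cocaine is Rps9, and no member passed in a cocaine contrast.

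Repeated cocaine changed no member past the threshold in any of the 4 groups (0 of 42 each, limma), where between 0% and 0.133% of all genes were called. In D1 controls, called for 0.0666% of all genes, the members lay above their saline level by a median of 0.30, with 24 of 42 at an unadjusted p under 0.05, where 11.7% of all genes were, and a median over all genes of 0.03. The smallest adjusted p was 0.105, for the large subunit gene Rpl35 (0.46 ± 0.11). Rps29, a zinc-binding small subunit protein, read 13.474, 13.361, 13.348 and 13.389 in D1 controls given cocaine and 13.081 and 12.920 in D1 controls given saline, a difference of 0.39 ± 0.11 (adjusted p = 0.145). Every cocaine array lay above both saline arrays in 27 of 42 members (64.3%), against 13.8% of all genes. With only 2 saline arrays, RNA quality ran the same way, from 2.17 to 2.90 in D1 controls given cocaine and at 1.96 and 2.01 in those given saline, and with it as a covariate the median of the members was 0.26 and 0 members and 0 of all genes were called. With array weights in the fit, 6 members were called in this contrast, all higher, as were 461 of all genes, 377 of them higher.

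In the other groups the medians were smaller. D1 mutants had a median cocaine difference of 0.17 with 14 members at an unadjusted p under 0.05 (11.8% of all genes), called for 0.0915% of all genes. For D2 mutants it was 0.12 with 5 such members (4.89% of all genes), called for 0% of all genes. D2 controls went the other way, with a median of -0.15, where that of all genes was -0.05. They had 7 such members (9.4% of all genes), called for 0.133% of all genes. Without D2 control cocaine replicate 1 and D1 control saline replicate 2 together, the median in D2 controls was -0.07, where that of all genes was -0.03. Rpsa had the smallest p in D2 controls (-0.31 ± 0.10, adjusted p = 0.249). It read 11.672, 12.010, 11.872 and 11.887 in D2 controls given cocaine and 12.141, 12.170 and 12.186 in D2 controls given saline. These groups did not overlap. Without D2 control cocaine replicate 1 the Rpsa difference was -0.243 (limma, adjusted p = 0.697). In D1 mutants Rplp2 (0.34, adjusted p = 0.232) and Rps14 (0.35, adjusted p = 0.24) had the smallest p, and in D2 mutants Rpl37a (0.50) and Rps10 (0.37), both with an adjusted p of 0.98. Cocaine arrays lay wholly above saline arrays in 10 of 42 members of D1 mutants (23.8%, all genes 8.82%) and in 10 of 42 of D2 mutants (23.8%, all genes 4.05%). In D2 controls 3 of 42 lay wholly below (7.14%, all genes 7.61%). The cocaine effect did not pass as different between mutants and controls for any member in D1 neurons (0 of 42 in limma, 6 at an unadjusted p under 0.05, all genes 11.2%) or D2 neurons (0 of 42, 14 unadjusted, all genes 4.85%), where 0% of all genes were called in both. Its median in D2 neurons was 0.28, where that of all genes was 0.06. Without D2 control cocaine replicate 1 and D1 control saline replicate 2 together, that median was 0.205, where that of all genes was 0.04.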

How the data were processed

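Per the submitters' processing notes, the authors made the deposited log2 values by RMA in Affymetrix Expression Console 1.1; the design text also names a global scaling in another program, and which probe definition was used is not given in the sources used here. Gene names came from the platform annotation of 2016. The 8 groups were fitted together in limma 3.58.1 (R 4.3.3) without further normalization, on 12017 genes above 6 (log2) in at least 3 arrays, with Benjamini-Hochberg adjustment within each contrast and 0.05 as the threshold. The number of arrays limits the precision, and no 2 arrays held the same values. The labels' protocols count 2 to 4 mice a group but do not tie arrays to mice, and the spread behind the p-values may be partly technical. Replicate numbers were not treated as pairs: arrays of the same number had a median correlation of residuals of 0.011. The fit was tested on simulated data. The members, gene lists and alternatives were chosen with earlier results of these data known. Members with values in every group were named by rule: Rpl10a, Rpsa, the Rplp genes, genes ending in l with their parents, up to 6 with the largest change per direction and contrast (or the 3 smallest p), and up to 3 against the common direction. Rps9 was added after its values were seen. Promoter windows came from RefSeq.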

Additional observations from a re-analysis of the deposited data

Results flagged for a closer look

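Within groups of 4 arrays, 128 sets of values were checked with Dixon's test and 8 (6.25%) had 1 array apart from the other 3, where chance gives about 1 in 20. Rps9, added after its values were seen, gave 3 of the 8, and without it 5 of 124 sets (4.03%) had such an array. The widest was Rps9 on D1 mutant cocaine replicate 2, at 6.478 against 12.018 to 12.166 on the other 3 arrays. Rps9 also stood apart on D1 control cocaine replicate 3 (11.646, others 12.348 to 12.493) and on D2 mutant cocaine replicate 1 (12.698, others 12.395 to 12.409). Rpl27 was low on D1 mutant cocaine replicate 4 (10.475, others 10.842 to 10.869), and Rps3 was low on D1 mutant cocaine replicate 3 (13.066, others 13.247 to 13.270). Rps19 was high on D1 control cocaine replicate 1 (12.170, others 11.975 to 11.992) and low on D2 mutant cocaine replicate 4 (11.863, others 11.995 to 12.006). Rps7 was high on D1 control cocaine replicate 3 (13.181, others 13.052 to 13.072).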

How the results depend on the processing

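The count of members in D1 against D2 neurons stayed within 1.5 times under every setting run except with the cocaine controls only. In controls it was 38 with all arrays, 34 after cyclic loess and at most 39 when 1 array was left out. With the cocaine arrays only it was 11 in controls, and 22 when D2 control cocaine replicate 1 was also left out. In mutants it was 35 to 38 when 1 array was left out (37 with all). The number as a replicate block gave 36 in controls (1 higher, 35 lower) and 36 in mutants, and left 8 in the genotype contrast of D2 neurons. That genotype count (8) was the least stable: 5 without probe sets ending in _x_at or _s_at, 4 after cyclic loess, 16 with array weights, 3 with D2 mutant cocaine replicate 4 as a control, 1 with the glial covariate, 5 without D2 control cocaine replicate 1 and D1 control saline replicate 2 together, and from 5 (without D2 mutant saline replicate 2) to 15 (without D2 control cocaine replicate 2) when 1 array was left out. Cocaine in D1 controls gave 6 with array weights in place of 0. Signs turned for Rps4x, mutant minus control in D1, with the mean of all probe sets (-0.036), and for Rpl10a, D1 minus D2 in controls, after cyclic loess (0.025). RNA quality, mutant minus control, turned to -0.12 in D2 with Gapdh alone and to -0.059 in D1 with Actb alone. The causes were not tested. Rps24 in D2 mutants was 0.045 without probe sets ending in _x_at or _s_at (adjusted p = 0.806). Of 27 arrays, 9 correlated best with an array of their own number. The glial covariate, the exchanged array, the arrays left out together and the split by drug were chosen after seeing the data. Many members share sequence with pseudogene copies, so their probe sets can also read other transcripts, and values near the top of the scale may be compressed.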
